A study of Mus musculus with 8 samples.

Results

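Retinoic acid synthesis, carriage and receptor genes were followed in mouse cumulus cells through the ovulatory response. The 8 genes chosen by name were Aldh1a1, Aldh1a2, Aldh1a7, Crabp1, Crabp2, Rara, Rarb and Rarg. Every probe set whose annotated symbol was exactly one of these was taken, which gave 8 probe sets of 7 genes among the 12422 probe sets tested. Aldh1a1 had 2 probe sets and the other genes 1 each. No probe set carried the symbol Rarb in the annotation used here, so Rarb was not analysed here. The gene group was proposed with earlier results of these data known, among them the low Aldh1a1 signal at 9 and 14 h after hCG. For the main Aldh1a1 probe set, changes that involve 9 or 14 h are therefore given as a description with no test. The p-values of the other members describe the fit over the whole table and are not independent evidence about the group.

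The cells came from EP2KO females, which are Ptger2(-/-) and lack the prostaglandin E2 receptor EP2, and from WT females. Both were C57Bl/6 mice of 3 to 4 weeks. All received 5 IU of PMSG to drive follicle growth. The cells were taken 48 h later with no hCG (0 h), or 3, 9 or 14 h after 5 IU of hCG, which stands in for the LH surge. Each of the 8 groups had 1 array, so a time was represented by 2 arrays, 1 EP2KO and 1 WT. Complexes were released from ovarian follicles and stripped by hand at 0, 3 and 9 h. At 14 h they were ovulated, taken from the oviduct and treated with 0.1% hyaluronidase, so ovulation and the way of collection cannot be told apart.

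Retinoic acid is made from vitamin A in steps. Alcohol dehydrogenases and retinol dehydrogenases oxidise retinol to retinal, and the aldehyde dehydrogenases Aldh1a1, Aldh1a2 and Aldh1a3 oxidise retinal to retinoic acid. Inside the cell it is bound by Crabp proteins, and in the nucleus it activates the receptors Rara, Rarb and Rarg, which pair with Rxr receptors on DNA. Cyp26 enzymes break it down. In the ovary, granulosa and cumulus cells are known to make retinoic acid under gonadotropin control.

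Aldh1a1 and Aldh1a7 are neighbours on chromosome 19, with 3 annotated genes between them in GRCm38.p6, of which 2 are long noncoding RNAs and 1 is a pseudogene. Their upstream sequences are shown because these were the members whose signals dropped together late after hCG, and because the windows are close in sequence. Each line gives the 150 bases just before an annotated RefSeq start, 5′ to 3′, and the capitals mark the longest run shared without a difference.
Aldh1a1, chr19:20601818-20601967, GRCm38.p6, plus strand: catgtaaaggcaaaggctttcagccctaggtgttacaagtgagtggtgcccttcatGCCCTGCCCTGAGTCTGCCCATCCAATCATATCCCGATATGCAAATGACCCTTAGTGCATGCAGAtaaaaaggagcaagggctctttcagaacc
Aldh1a7, chr19:20727557-20727706, GRCm38.p6, minus strand: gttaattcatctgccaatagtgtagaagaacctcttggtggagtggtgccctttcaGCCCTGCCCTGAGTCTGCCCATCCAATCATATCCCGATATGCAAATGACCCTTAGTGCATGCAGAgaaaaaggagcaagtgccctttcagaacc
The shared run is 65 bases long and ends 29 bases before both starts. Aligned from the starts without gaps, 94 of the last 100 bases and 108 of all 150 were identical. In the 250 bases before the starts, the longest run shared by any other pair of windows of different member genes was 11 bases. The Aldh1a1 window is 1 of 2 listed for that gene. Crabp2 has no entry in the sequence table.

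The shared run holds the octamer ATGCAAAT and a CCAAT element. Counting both strands over windows from 250 bases before to 50 after a start, 1.74% of 32851 RefSeq windows held ATGCAAAT and 37.4% held CCAAT. Of the 12 member windows, 3 held ATGCAAAT, those of Aldh1a1, Aldh1a7 and Aldh1a2 with 1 each, and 5 held CCAAT, the same 3 and 2 of Rara. Both motifs were chosen for this count after the sequences were seen. The spaced repeats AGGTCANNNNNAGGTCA and AGGTCANNAGGTCA, which retinoic acid receptors are known to bind, stood in 0 of the 12 member windows and in 0.00913% of all windows each. The search took exact matches only, which just 3 of the 32851 windows held for each repeat. The 0 of 12 therefore does not show whether member windows hold looser forms of these sites. The single element AGGTCA, which both repeats contain, stood in 2 of the 12 member windows, 1 of Rara and 1 of Rarg, and in 16.3% of all windows.

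The array values are deposited log2 signals, with array medians between 7.79 and 7.89. The Ptger2 probe set read from 4.24 to 4.69 in the 4 EP2KO arrays and from 4.95 to 5.97 in the 4 WT arrays, and was lower in EP2KO at all 4 times. The mean log2 signal of 11 granulosa and cumulus markers lay between 10.2 and 12.1 in EP2KO and between 10.3 and 12.0 in WT, with the lowest value at 14 h in both. By limma 1 of these 11 rose and 5 fell at 3 h, 9 fell at 9 h and 8 fell at 14 h, and 0 rose at 9 or 14 h. Their median change was −0.955 at 9 h and −1.755 at 14 h, beside −0.08 and −0.06 over all probe sets. The mean log2 signal of 10 oviduct epithelium markers was 8.37 in EP2KO and 8.11 in WT at 14 h and lay between 7.48 and 7.67 in the 6 earlier arrays. By limma 4 of these 10 rose at 14 h, Ovgp1 most (3.64), and 1 fell, Foxj1 (−0.42), while Cdh1, Sox17, Pax8, Cldn3 and Epcam did not pass. That of 14 leukocyte markers was 8.12 in EP2KO and 7.82 in WT at 14 h, and between 7.25 and 7.57 earlier, and 5 of the 14 rose at 14 h. Of 4 erythroid markers, 2 rose and 1, Slc4a1 (−0.32), fell at 3 h, while 2 rose at 9 h and 1 at 14 h. Hba-a1 changed by 1.60, 2.17 and 1.02 at these times, and the last change did not pass. The mean of the 4 markers read 8.45, 8.65, 8.57 and 9.10 in EP2KO at 0, 3, 9 and 14 h and 8.21, 9.26, 9.87 and 9.01 in WT. Of 9 endothelial markers, 0 rose and 3 fell at 3 h, 2 rose and 1 fell at 9 h, and 1 rose and 1 fell at 14 h. Cdh5 (1.52) and Eng (0.50) rose at 9 h and Cdh5 (1.55) at 14 h, while Tek fell at both times (−0.49 and −0.45). The signal of the 3' minus the 5' control probe set of Gapdh, a measure of RNA or product length, was 2.82 in EP2KO and 2.87 in WT at 14 h, 0.96 and 0.80 at 3 h, and from 1.22 to 1.86 at 0 and 9 h. The same measure for Actb was 0.69, 0.76, 1.12 and 1.37 in EP2KO at 0, 3, 9 and 14 h and 0.97, 0.73, 1.54 and 1.61 in WT. The part of these markers and of product length in the results was not tested. In such samples fewer cells of a type and less RNA per cell cannot be told apart.

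**Figure D1:**
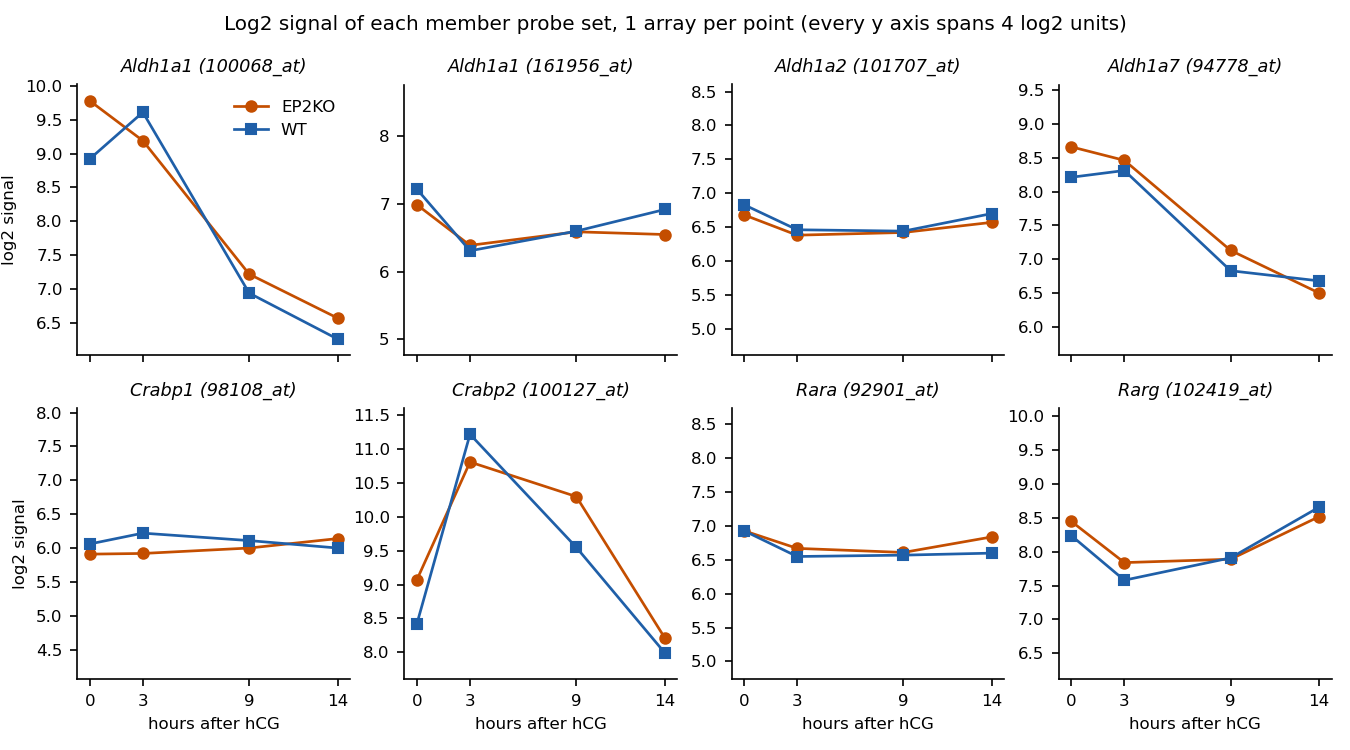
Log2 signal (y axis, spanning 4 log2 units in every panel) against hours after hCG (x axis) for the 8 member probe sets, with circles for EP2KO and squares for WT, 1 array per point. The main Aldh1a1 probe set, Aldh1a7 and Crabp2 cover 3.52, 2.16 and 3.23 log2 units over the 8 arrays, and Crabp1, Rara and Aldh1a2 at most 0.45.

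Among the enzymes, Aldh1a1, which oxidises retinal to retinoic acid, had the widest span of the group. Its main probe set, the brighter of the pair, read 9.78, 9.19, 7.22 and 6.57 in EP2KO at 0, 3, 9 and 14 h, and 8.92, 9.61, 6.94 and 6.26 in WT. All 4 arrays of 9 and 14 h lay below all 4 arrays of 0 and 3 h, with no overlap. The low values at 9 and 14 h are those through which the group was proposed. How many of all probe sets separate their arrays by time in such a way was not counted, here or for the members below. The mean signal at 9 h was 2.27 log2 units below that at 0 h, and at 14 h the difference to 0 h was −2.94 (2 arrays per time). Most of this came between 3 and 9 h, where the change was −2.32, while the step from 9 to 14 h was −0.67. At 3 h the mean change from 0 h was 0.05 ± 0.229 (limma, adjusted p = 0.875), with −0.59 in EP2KO and 0.69 in WT.

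The second Aldh1a1 probe set, which has no accession in the annotation, behaved otherwise. It read 6.99, 6.39, 6.59 and 6.55 in EP2KO at 0, 3, 9 and 14 h and 7.22, 6.31, 6.60 and 6.92 in WT. Its highest values were the 2 arrays of 0 h and its lowest those of 3 h. By limma it fell by 0.76 ± 0.136 at 3 h (adjusted p = 0.00229; SE, n = 2 arrays at each time) and fell by 0.51 ± 0.136 at 9 h (adjusted p = 0.0226), and stood at −0.37 at 14 h (adjusted p = 0.0675). The 9 h call ended without any 1 of the 4 arrays of 0 and 9 h, and the 14 h change passed without the WT 14 h array (adjusted p = 0.0443). The probe sets of this gene thus disagree on the size and the time of the change. The mean signal of the second over the 8 arrays, 6.70, is low and may lie near background. With both averaged into 1 value per gene, the change against 0 h was −0.35 at 3 h, −1.39 at 9 h and −1.65 at 14 h.

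Aldh1a7, a rodent relative of Aldh1a1 in the same cluster, read 8.66, 8.46, 7.13 and 6.50 in EP2KO at 0, 3, 9 and 14 h and 8.21, 8.31, 6.83 and 6.68 in WT. As for the main Aldh1a1 probe set, the 4 arrays of 9 and 14 h lay below the 4 earlier ones. Aldh1a7 stood at −0.05 ± 0.152 at 3 h (limma, adjusted p = 0.806), fell by 1.46 ± 0.152 at 9 h (adjusted p = 0.000133) and fell by 1.84 ± 0.152 at 14 h (adjusted p = 1.08e-05; SE, n = 2 arrays per time). The step from 3 to 9 h was −1.41 (limma, adjusted p = 0.000397) and the step from 9 to 14 h, at −0.39, did not pass (adjusted p = 0.106), except without the WT 14 h array, where it was −0.63 (adjusted p = 0.0247). The upstream windows of this gene and Aldh1a1 share the 65-base run printed in capitals, and whether their probes also read each other's RNA was not tested.

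Aldh1a2, the aldehyde dehydrogenase known as the main source of retinoic acid in the embryo, stayed within 0.45 log2 units. It read 6.68, 6.38, 6.42 and 6.57 in EP2KO at 0, 3, 9 and 14 h and 6.83, 6.46, 6.44 and 6.70 in WT. It fell by 0.34 ± 0.114 at 3 h (limma, adjusted p = 0.0370), and this call ended after median centring of the arrays (adjusted p = 0.0841) and under quantile normalization (adjusted p = 0.328). It also ended when 1 of 6 arrays was left out, those of 14 h being the exceptions, with adjusted p up to 0.179. The median change of all probe sets at 3 h was −0.135 as deposited and −0.06 after median centring. At 9 and 14 h Aldh1a2 stood at −0.33 and −0.12 and did not pass (limma, adjusted p = 0.0642 and 0.479).

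Crabp2, which carries retinoic acid to its receptors in the nucleus, made a transient rise. It read 9.07, 10.81, 10.30 and 8.21 in EP2KO at 0, 3, 9 and 14 h and 8.42, 11.22, 9.55 and 7.99 in WT. Both arrays of 3 h were above all others and both arrays of 14 h below all others. By limma Crabp2 rose by 2.27 ± 0.231 at 3 h (adjusted p = 0.000125; SE, n = 2 arrays at each time) and was still up by 1.18 ± 0.231 at 9 h (adjusted p = 0.00487). At 14 h it stood at −0.65 ± 0.231 against 0 h and did not pass (limma, adjusted p = 0.0608), although it passed under quantile normalization (adjusted p = 0.0414), with only the 4 arrays of 0 and 14 h (adjusted p = 0.0152) and without any 1 of the 4 arrays of 3 and 9 h.

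The decline of Crabp2 from its high point ran in steps. From 3 to 9 h it fell by 1.09 (limma, adjusted p = 0.00984), and from 9 to 14 h it fell by 1.82 (adjusted p = 0.000324). The first step was −0.51 in EP2KO and −1.67 in WT. Its call ended without the WT 3 h array, where the change was −0.62 (limma, adjusted p = 0.101), without the WT 9 h array, where it was −0.79 (adjusted p = 0.120), and with only the 4 arrays of 3 and 9 h (adjusted p = 0.0632). The 9 h call against 0 h ended without the WT 0 h array, where the change was 0.95 (adjusted p = 0.0961). The rise at 3 h and the fall from 9 to 14 h passed without each array in turn. The 3' minus 5' Gapdh signal given above was lowest at 3 h and highest at 14 h, the times at which Crabp2 was highest and lowest. That of Actb had the same order in WT, with 0.73 at 3 h and 1.61 at 14 h. In EP2KO the Actb value was also highest at 14 h (1.37), but it was lowest at 0 h (0.69), beside 0.76 at 3 h. The part of product length in the Crabp2 profile was not tested.

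Crabp1, the other cellular retinoic acid binding protein, read 5.91, 5.92, 6.00 and 6.14 in EP2KO at 0, 3, 9 and 14 h and 6.06, 6.22, 6.11 and 6.00 in WT. Its changes against 0 h were 0.09, 0.07 and 0.09 at 3, 9 and 14 h, each with an SE of 0.131, and none passed (limma, adjusted p = 0.617, 0.739 and 0.682). The arrays of each later time overlapped those of 0 h. Detection calls were not used here, so the low values of Crabp1, Aldh1a2, Rara and the second Aldh1a1 probe set may lie near background.

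**Figure D2:**
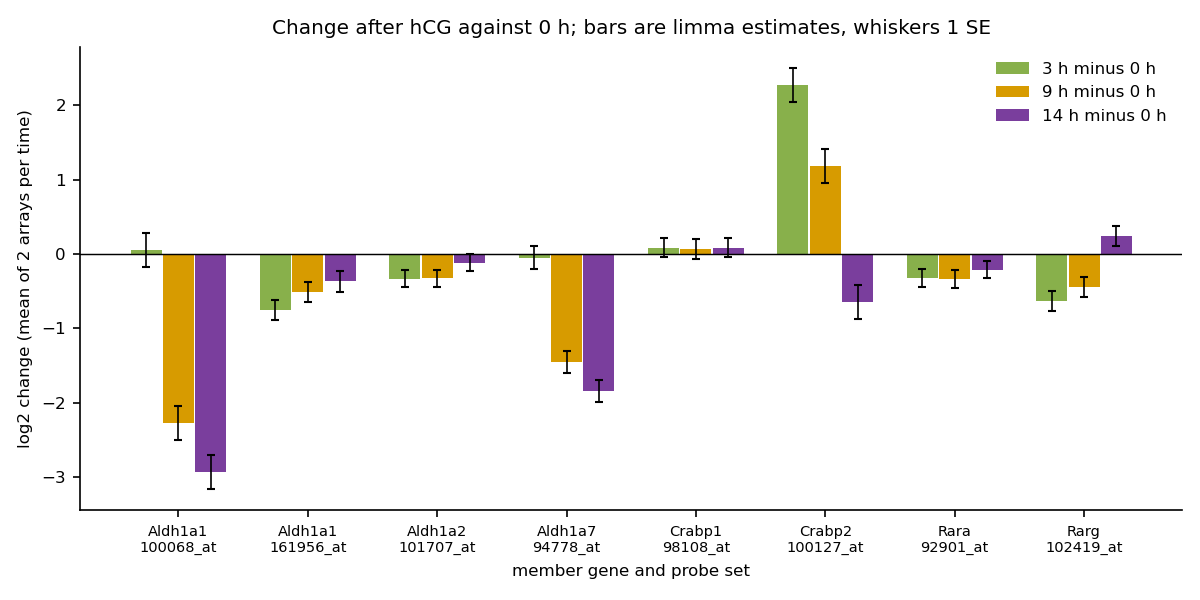
Log2 change against 0 h (y axis) for each member probe set (x axis) at 3, 9 and 14 h, as limma estimates from 2 arrays per time with whiskers of 1 SE. The tallest bar above 0 is Crabp2 at 3 h (2.27). The main Aldh1a1 probe set and Aldh1a7 extend downward at 9 and 14 h. For the main Aldh1a1 probe set at these 2 times the whiskers belong to the fit and give no test.

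Of the receptors, Rarg, which binds retinoic acid and acts as a transcription factor, dipped and came back. It read 8.45, 7.84, 7.89 and 8.52 in EP2KO at 0, 3, 9 and 14 h and 8.24, 7.58, 7.91 and 8.66 in WT. All 4 arrays of 3 and 9 h lay below all 4 of 0 and 14 h. By limma Rarg fell by 0.64 ± 0.133 at 3 h (adjusted p = 0.00475; SE, n = 2 arrays at each time), fell by 0.45 ± 0.133 at 9 h (adjusted p = 0.0357) and rose by 0.69 ± 0.133 from 9 to 14 h (adjusted p = 0.00401). At 14 h it stood at 0.25 against 0 h and did not pass (adjusted p = 0.205). The 3 h call ended without the WT 3 h array (adjusted p = 0.0620). The 9 h call ended after median centring (adjusted p = 0.0582) and without any 1 of the 4 arrays of 0 and 9 h. The rise from 9 to 14 h ended without the EP2KO 9 h array (adjusted p = 0.0616). It also ended with only the 4 arrays of 9 and 14 h (adjusted p = 0.0545). In both genotypes Rarg and the 3' minus 5' Gapdh signal had the same order, lowest at 3 h, then 9, 0 and 14 h. The Actb signal differed, with 1.12 at 9 h and 0.69 at 0 h in EP2KO, and 1.54 and 0.97 in WT. The part of product length in the Rarg profile was not tested.

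Rara, the receptor that most tissues express, read 6.93, 6.67, 6.61 and 6.84 in EP2KO at 0, 3, 9 and 14 h and 6.93, 6.55, 6.57 and 6.60 in WT. The 0 h arrays were the highest in both genotypes. Its changes against 0 h were −0.32, −0.34 and −0.21 at 3, 9 and 14 h, each with an SE of 0.118, and did not pass (limma, adjusted p = 0.0507, 0.0637 and 0.223). At 3 h it passed with an intensity trend in the prior (adjusted p = 0.0429) and without the genotype term (adjusted p = 0.0495), and at 9 h with only the 4 arrays of 0 and 9 h (adjusted p = 0.0494).

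Over the group, 4 of the 8 probe sets passed at 3 h, 1 higher and 3 lower, where 42.8% of all 12422 did, 17.4% higher and 25.4% lower. At 9 h 5 of 8 passed, 1 higher and 4 lower, against 23% of all, 10.9% higher and 12.1% lower. At 14 h 2 of 8 passed, both lower, against 28.8% of all, 13.5% higher and 15.2% lower. From 3 to 9 h 3 of 8 passed, all lower, against 19.4% of all, 7.59% higher and 11.8% lower. From 9 to 14 h 2 of 8 passed, 1 in each direction, against 20.1% of all, 10% higher and 10.1% lower. The counts against 0 h at 9 and 14 h and the count from 3 to 9 h include the main Aldh1a1 probe set, through which the group was proposed, and nothing is read from them.

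The EP2KO and WT arrays were compared to ask how loss of the EP2 receptor bears on these genes. Over the 4 times, 0 of the 8 member probe sets differed between EP2KO and WT, where limma called 0% of all probe sets, 642 of which had an unadjusted p under 0.05. The lowest unadjusted p among the members was 0.0925 by limma, that of Crabp2. The mean difference of EP2KO minus WT was 0.26 for the main Aldh1a1 probe set, with a 95% interval of −0.10 to 0.62. For Crabp2 it was 0.30, with an interval of −0.06 to 0.66, and for Aldh1a7 0.18, with −0.06 to 0.42. Each of these 3 was higher in EP2KO at 3 of 4 times. Rarg and Rara had mean differences of 0.08 and 0.10, with intervals of −0.13 to 0.29 and −0.09 to 0.29. Aldh1a2 stood at −0.10 with −0.27 to 0.08, and was lower in EP2KO at 4 of 4 times. Crabp1 stood at −0.11 with −0.31 to 0.10, and the second Aldh1a1 probe set at −0.13 with −0.35 to 0.08.

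At single times, with 1 array a genotype and no test, the widest gaps were those of Aldh1a1 and Crabp2. Main Aldh1a1 signal at 0 h was 9.78 in EP2KO and 8.92 in WT, a difference of 0.86 that 0.0805% of all probe sets equalled or passed in size. Crabp2 at 9 h was 10.30 in EP2KO and 9.55 in WT, a difference of 0.75 that 0.435% equalled or passed. At 0 h the Crabp2 difference was 0.65, with 9.07 in EP2KO and 8.42 in WT (0.58% of all probe sets). Both genes were lower in EP2KO at 3 h only, with differences of −0.42 for Aldh1a1 and −0.41 for Crabp2, where 6.95% and 7.42% of all probe sets were as far apart. The median size of the difference over all probe sets was 0.15, 0.14, 0.11 and 0.13 at 0, 3, 9 and 14 h.

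**Figure D3:**
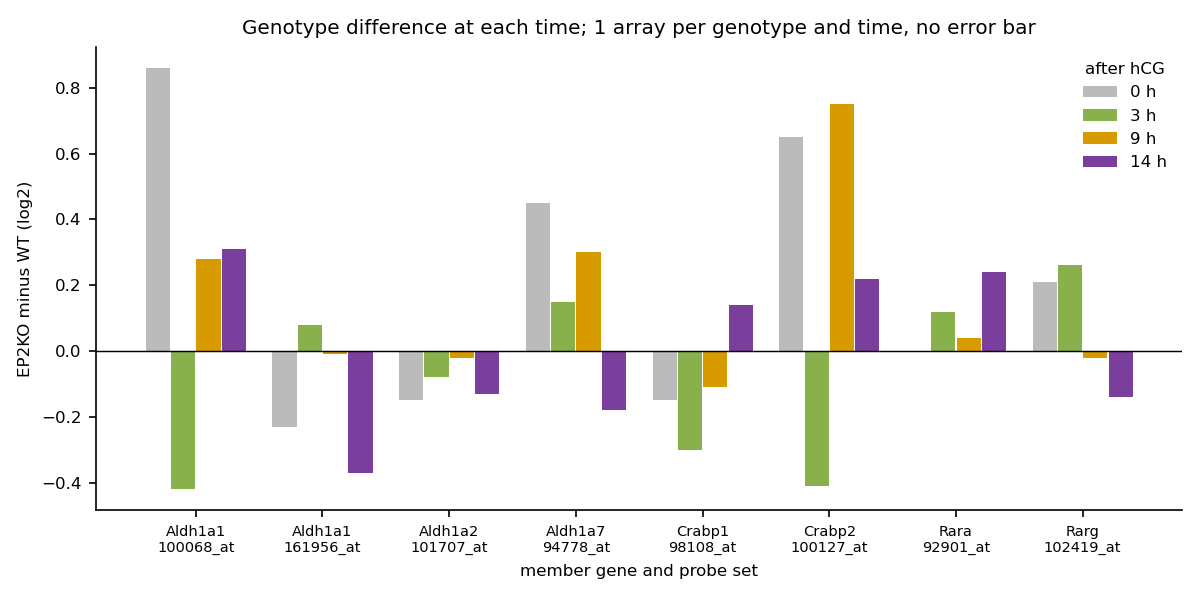
EP2KO minus WT (y axis, log2 units) for each member probe set (x axis) at 0, 3, 9 and 14 h, each bar being the difference of 2 arrays, so there is no error bar. The main Aldh1a1 probe set and Crabp2 stand above 0 at 0, 9 and 14 h and below 0 at 3 h.

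Ovulated cells at 14 h gave the genotype difference a further test, its departure from the mean of the earlier times. It passed for 0 of the 8 member probe sets, with 0.0805% called over all. The lowest unadjusted p among the members was that of Aldh1a7, with a departure of −0.48 ± 0.206 (limma, unadjusted p = 0.0417, adjusted p = 0.685). Aldh1a7 was 6.50 in EP2KO and 6.68 in WT at 14 h, a reversal of the earlier sign that did not pass.

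The wider retinoid pathway was taken from lists of 69 symbols outside the group, of which 47 were measured. Of these, 6 rose and 13 fell at 3 h, or 12.8% and 27.7%, where 17.4% of all probe sets were called higher and 25.4% lower. At 9 h 5 rose and 5 fell, or 10.6% each, against 10.9% and 12.1% of all, and at 14 h 5 rose and 7 fell, or 10.6% and 14.9%, against 13.5% and 15.2%. These shares were near those of all probe sets, and the counts of the single lists below, each of 6 to 15 genes, have the same background. Their median change was −0.16, −0.09 and −0.06 at the 3 times, beside −0.14, −0.08 and −0.06 over all probe sets. At 3 h 7 rose and 8 fell after median centring, and 5 rose and 9 fell under quantile normalization, so the surplus of falls was smaller under both scalings.

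Among 14 measured enzymes of retinoid synthesis and breakdown, Aldh1a3, which also makes retinoic acid, rose by 0.78 ± 0.114 at 9 h (limma, adjusted p = 0.000994). It read 6.47, 6.38, 7.30 and 6.79 in EP2KO at 0, 3, 9 and 14 h and 6.37, 6.31, 7.09 and 6.62 in WT. Its high point was thus at 9 h, when the main Aldh1a1 probe set and Aldh1a7 were low. The Aldh1a3 values of 0 and 3 h, at most 6.47, may lie near background. Dhrs3, which turns retinal back to retinol, fell by 0.74 ± 0.134 at 9 h (adjusted p = 0.00339). Adh5, an alcohol dehydrogenase, fell by 0.87 ± 0.162 at 14 h (adjusted p = 0.00241). Adh7, an alcohol dehydrogenase that oxidises retinol, rose by 0.56 at 3 h and 0.69 at 9 h (limma, adjusted p = 0.00517 and 0.00274). Cyp26a1, which degrades retinoic acid and is a known target of it, fell by 0.44 at 3 h and fell by 0.35 at 14 h (limma, adjusted p = 0.0121 and 0.0405). Both Cyp26a1 calls ended under quantile normalization (adjusted p = 0.130 and 0.111). In this list 1 gene rose and 4 fell at 3 h, 2 rose and 1 fell at 9 h, and 2 fell at 14 h.

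Of the 6 measured carriers and uptake proteins, Stra6, the receptor that brings retinol into cells, fell by 0.74, 0.69 and 0.38 at 3, 9 and 14 h (limma, adjusted p = 0.00163, 0.00306 and 0.0420), and the last of these calls ended after median centring (adjusted p = 0.0605). Fabp5, a fatty acid binding protein that can also carry retinoic acid, fell by 0.79 at 9 h (adjusted p = 0.00436) and fell by 1.84 at 14 h (adjusted p = 1.02e-05). It read 10.52, 10.60, 9.83 and 8.96 in EP2KO at 0, 3, 9 and 14 h and 10.28, 10.34, 9.40 and 8.15 in WT. Rbp4, the retinol carrier of blood, rose by 0.51 at 9 h (adjusted p = 0.0162) and was the only riser of this list at the times against 0 h.

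Among 12 measured partner receptors and coregulators, 2 rose and 5 fell at 3 h, 1 rose at 9 h, and 2 rose and 1 fell at 14 h. Nrip1, a ligand-dependent corepressor needed for ovulation in mice, rose by 0.81 at 3 h and 0.55 at 14 h (limma, adjusted p = 0.00199 and 0.0143). Nr2f6, an orphan receptor, rose by 0.63, 0.57 and 0.42 at 3, 9 and 14 h (adjusted p = 0.00346, 0.00843 and 0.0271). The coactivator Ncoa1 fell by 0.58 at 3 h (limma, adjusted p = 0.0103), and Rxra, the partner of the retinoic acid receptors, by 0.42 (adjusted p = 0.0195).

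Of 15 measured genes known to be induced by retinoic acid in other cells, 3 rose and 3 fell at 3 h, 1 rose and 2 fell at 9 h, and 3 rose and 2 fell at 14 h. Bhlhe40, a transcriptional repressor that many stimuli induce, rose by 1.68, 1.68 and 2.57 at the 3 times (limma, adjusted p = 0.000569, 0.000644 and 1.92e-05). Rarres2, which encodes chemerin, rose by 1.04 at 3 h and fell by 0.97 at 14 h (adjusted p = 0.00176 and 0.00216). Gata6, a transcription factor of granulosa cells, fell by 1.51 at 9 h and fell by 1.34 at 14 h (limma, adjusted p = 0.000169 and 0.000158). Meis2, a homeobox factor, and Tgm2, a transglutaminase, rose by 0.66 and 0.55 at 14 h (adjusted p = 0.00498 and 0.00809).

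**Figure D4:**
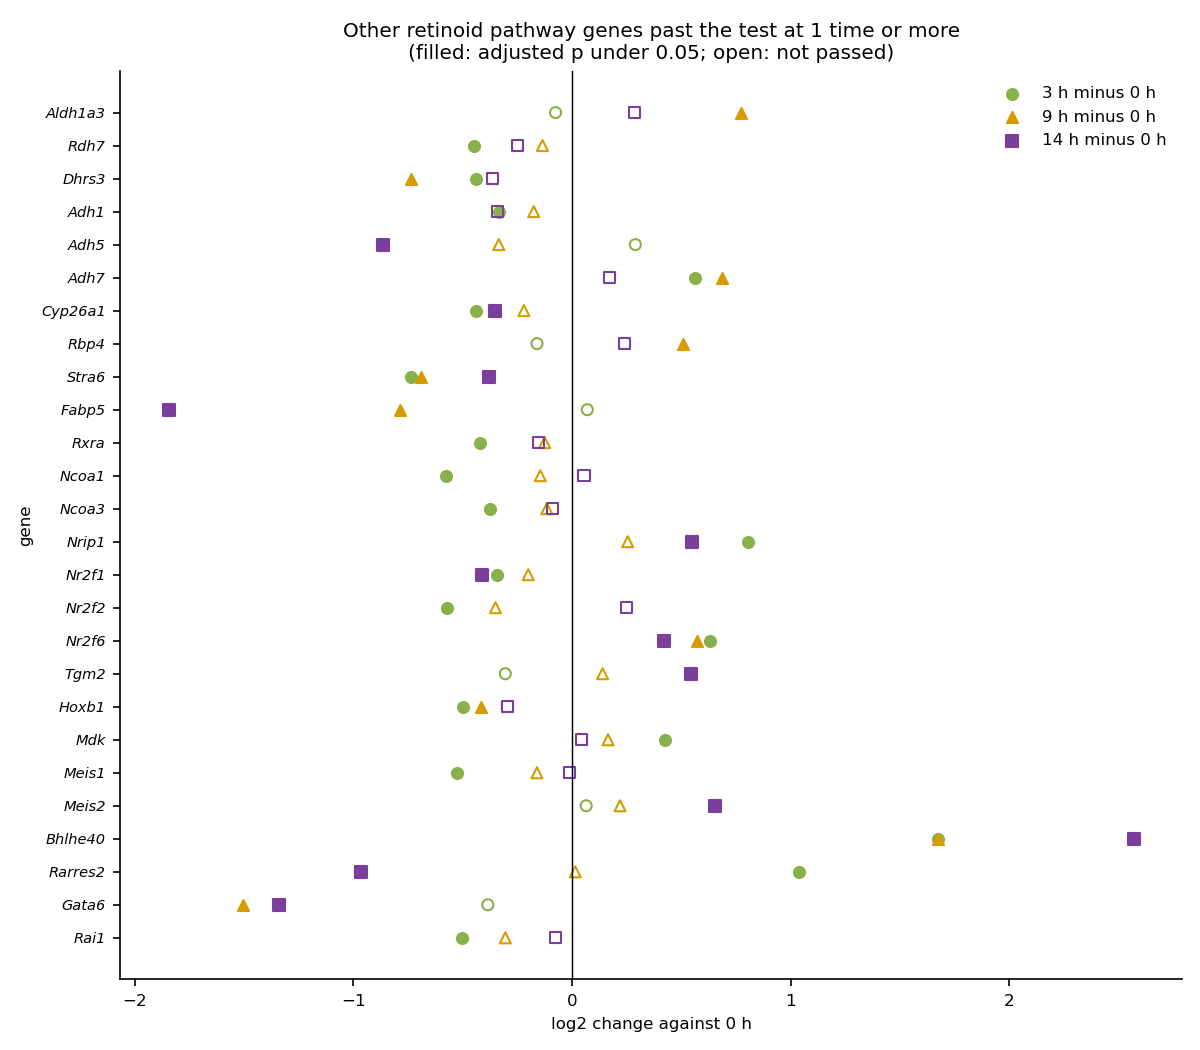
Log2 change against 0 h (x axis) of the 26 other retinoid pathway genes that passed at 1 time or more (y axis), with circles for 3 h, triangles for 9 h and squares for 14 h. Filled symbols passed at an adjusted p under 0.05, and the points range from Fabp5 at −1.84 to Bhlhe40 at 2.57, both at 14 h.

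The genes most like each member were those with the smallest root mean square difference over the 8 arrays, after each profile was centred on its own mean. This was done for the 4 members that spanned at least 1 log2 unit, over 8250 other genes, and no test was made. For Aldh1a1 the nearest were Tenm4, a membrane protein of cell contacts, at 0.27, Perp, a desmosome protein, at 0.41, Inhba, a subunit of inhibin and activin, at 0.42 and Ccnd2, cyclin D2, at 0.44 log2 units. Aldh1a7 ranked 15 by this measure, at 0.56. For Aldh1a7 the nearest were Sytl4, a vesicle protein, at 0.13, St3gal5, a sialyltransferase, at 0.17, Ncaph, a condensin subunit, at 0.18 and Pola1, a subunit of DNA polymerase alpha, at 0.19. Aldh1a1 ranked 447 from there, at the same difference of 0.56, as more genes lay closer to Aldh1a7.

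For Crabp2 the nearest were Tceal9 at 0.15, Ndufb8 at 0.22, Elob, an elongin subunit, at 0.25 and Ndufb10 at 0.25. Ndufb8 and Ndufb10 encode subunits of respiratory complex I, and Ndufb8 read 9.67, 11.22, 10.56 and 8.48 in EP2KO at 0, 3, 9 and 14 h and 9.17, 11.29, 10.19 and 8.31 in WT. For Rarg the nearest were Fkbp8, an immunophilin, at 0.07, Lasp1, an actin-binding protein, at 0.07, Stat5a, a transcription factor, at 0.08 and Slc12a7, a potassium chloride cotransporter, at 0.09. The 8 arrays share the times and the scaling, so such likeness is a description of these arrays.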

How the data were processed

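Samples were Affymetrix arrays of total RNA (100 ng, 2 rounds of amplification, per the labels' protocols). The deposited values are log2 signals with 2 decimals, made with RMA per the submitters' processing notes, whose version was not stated there. They were used as deposited, without a filter. Of 12488 probe sets 66 controls were left out. Symbols came from the platform annotation, and promoter sequences and names from RefSeq on GRCm38.p6.

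Linear models were fitted with limma 3.58.1 (lmFit, eBayes) under R 4.3.3, with time and genotype as terms over all 8 arrays and 3 residual degrees of freedom, plus a genotype by 14 h term for the departure. P-values are two-sided, adjusted by Benjamini-Hochberg over 12422 probe sets within a contrast, and passed under 0.05. No group had a replicate array, so the residual spread is how far the EP2KO minus WT difference varies over the times. It mixes any real change of the genotype difference with time and the noise between arrays, which cannot be told apart. The p-values and the SEs rest on this spread, which eBayes moderates over all probe sets. Nothing says that arrays came from separate animals, so the noise may be technical. The number of arrays limits the precision. The fit was also run on data simulated from the same additive model with independent noise. Those data held no change of the genotype difference with time, so the run cannot speak to the limits given here.

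Members, lists, contrasts and alternatives were chosen with earlier results of these data known. All member probe sets were named, a gene's main probe set being that with the highest mean. Of the pathway lists, up to 6 passing genes per time with the largest change were named, others as values, and 4 nearest genes per member. Marker lists covered granulosa and cumulus, oocyte, theca and stroma, oviduct epithelium, ovarian surface epithelium, leukocytes, endothelium and erythroid cells. At 3, 9 and 14 h against 0 h, 0 of 9 oocyte, 0 of 11 theca and stroma and 0 of 6 ovarian surface markers rose. At these times 2, 1 and 1 oocyte markers fell, as did 4, 1 and 0 of theca and stroma and 3, 2 and 1 of ovarian surface. Over all probe sets 25.4%, 12.1% and 15.2% were called lower.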

Additional observations from a re-analysis of the deposited data

Results flagged for a closer look

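The main Aldh1a1 probe set moved in opposite directions in the genotypes in the first 3 h after hCG. It changed by −0.59 in EP2KO, with 9.19 at 3 h against 9.78 at 0 h, and by 0.69 in WT, with 9.61 at 3 h against 8.92 at 0 h, each from 1 array per time. The difference between the genotypes was tested in a fit added after the data were seen, with separate genotype differences at 0 and 3 h. It came to −1.28 ± 0.165 (limma, unadjusted p = 0.00357, adjusted p = 0.595) and did not pass. The fit had 1 residual degree of freedom and was prompted by the opposite signs it tests, so it adds no evidence for them. Of all probe sets 0 passed in that fit and 866 had an unadjusted p under 0.05. Aldh1a7, the neighbouring gene, changed by −0.20 in EP2KO and by 0.10 in WT over the same interval. Crabp2 changed by 1.74 in EP2KO and by 2.80 in WT, a difference of −1.06 ± 0.339 in the same fit (limma, unadjusted p = 0.0480, adjusted p = 0.595).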

How the results depend on the processing

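No member change that passed, as deposited or under an alternative, was reversed. Away from the left-out arrays, 328 of 339 member values kept their side of the threshold, 6 lost it and 5 gained it. With 1 array left out, 403 of 432 kept it, 19 lost it and 10 gained it. Most of these values had not passed as deposited, and they include the genotype contrasts, where no member passed. The totals therefore say little on how firm the passing changes are. They also include the main Aldh1a1 probe set at 9 and 14 h. Counts of passing probe sets moved over 1.5 times in 8 cases. At 3 h 5313 became 3482 (members 4 and 2, with 4 member probe sets still tested) without the lowest 40% of probe sets and 2888 with only the 4 arrays compared. With those 4 arrays, 2412 from 3 to 9 h became 1257 and 2496 from 9 to 14 h became 699 (members 2 and 1). The 10 departures at 14 h became 0 after median centring and 0 without the lowest 40%. Median centring split the 3 h calls into 2394 higher and 2111 lower, against 2161 and 3152 as deposited. The causes were not tested, beyond fewer probe sets or arrays in the fit.

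Leaving out 1 array gave 1897 to 5471 passing probe sets at 3 h, 1225 to 3036 at 9 h, 2289 to 3809 at 14 h, 489 to 2605 from 3 to 9 h, 1286 to 2668 from 9 to 14 h, 0 to 1 between genotypes and 0 to 0 for the departure. Member counts ran from 2 to 4 at 3 h, 2 to 5 at 9 h, 2 to 3 at 14 h, 2 to 3 from 3 to 9 h and 1 to 3 from 9 to 14 h. The departure could not be fitted without an array of 14 h. No paired analysis was possible because every group has the single replicate number 1.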
